A study of Mus musculus with 9 samples.

Results

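The genes described here are Zfp36, Zfp36l1, Zfp36l2, Btg1, Btg2 and Btg3, which encode proteins that hasten the decay of messenger RNA. Their levels were compared between newborn mice with the genotype label Alox12b-KO (4 arrays) and wildtype newborns (5 arrays), in epidermis of the trunk. All probe sets whose platform annotation gives 1 of the 6 genes as the only symbol were taken, which gave 11 of 45037 probe sets and 5 of 18193 genes tested. Btg3 had none, because the 1 probe set that names it also names another gene, and no value is given for it. The genes were selected on their knockout minus wildtype differences in these same arrays, so those differences and p-values describe these arrays and are not independent evidence.

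Alox12b encodes the 12R-lipoxygenase, which oxidises the linoleate of epidermal acylceramides, a step of skin barrier formation. The animals came from matings of heterozygous knockout mice, and epidermal sheets were lifted from the dermis mechanically after 30 seconds in buffered saline at 56 °C. The labels name the strain 129S6 for the wildtype samples and no strain for the knockout samples, and the deleted part of Alox12b is not named. Each sample is called a biological replicate and filled 1 Affymetrix Mouse Genome U430 2.0 array, and values are log2 levels as deposited.

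Zfp36, also called tristetraprolin, Zfp36l1 and Zfp36l2 bind AU-rich elements in the 3′ ends of short-lived messages through a pair of CCCH zinc fingers and recruit the CCR4-NOT deadenylase, which shortens the poly(A) tail. Messages of cytokines and growth regulators are their best known targets, and the kinase p38 acting through MK2 phosphorylates Zfp36 and restrains it. Btg1, Btg2 and their relatives Tob1 and Tob2 bind the catalytic subunits Cnot7 and Cnot8 of the same deadenylase and slow cell proliferation. Zfp36 and Btg2 are themselves immediate early genes, transcribed within minutes of growth factor or stress signals, and Btg2 is also a target of p53.

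Several facts about the arrays bear on the values below. Alox12b read 11.13 ± 0.33 (SD, n = 4) in knockout and 10.91 ± 0.29 (SD, n = 5) in wildtype, so its probe set did not separate the groups, and where its probes lie relative to the deleted part is not known here. Xist, the RNA of the inactive X chromosome, read 9.99 to 10.20 on the knockout arrays and 10.95 on wildtype array 4, but 3.23 to 4.32 on the other wildtype arrays, so the Xist level, a mark of female cells, nearly coincided with genotype. Wildtype array 5 stood farthest from its group, with a root mean square deviation of 0.40 over all genes against 0.18 to 0.34 on the other 8 arrays. Smooth muscle markers averaged 6.28 and fibroblast markers 8.44 on knockout array 4, against 3.50 to 4.00 and 4.99 to 7.08 on the other arrays. Epidermal keratinocyte markers averaged 10.71 to 11.02 on the knockout arrays and 10.88 to 11.46 on the wildtype arrays. Of 8 such markers 0 passed the limma threshold and 4 had positive differences. The largest differences were -1.42 for Trp63 (limma adjusted p of 0.0809) and -1.04 for Krt15 (limma adjusted p of 0.143). In tissue, fewer cells of a type and less RNA per cell cannot be told apart.

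Zfp36 and Btg2 were both higher in knockout, by similar amounts. Zfp36 (probe set 1452519_a_at) read 10.17, 10.28, 10.05 and 10.16 on knockout arrays 1 to 4 and 8.20, 7.92, 8.50, 7.84 and 7.94 on wildtype arrays 1 to 5. Every knockout array stood above every wildtype array, and the gap between the groups was wider than the range within either. The difference in level was 2.09 on the log2 scale with an SE of 0.15, or 4.24-fold, with a limma adjusted p of 0.000227 over all genes.

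Btg2 (probe set 1448272_at) read 9.69, 9.86, 9.85 and 9.55 in knockout and 7.68, 7.84, 7.65, 7.58 and 7.92 in wildtype. The groups were again far apart, by 2.01 on the log2 scale (SE 0.12), or 4.02-fold, and the limma adjusted p was 6.97e-05. A dimmer Btg2 probe set, 1416250_at, read 8.74, 8.57, 8.93 and 8.90 against 7.07, 7.19, 7.27, 6.58 and 6.58. It showed nearly the same rise, 3.60-fold, so both Btg2 probe sets moved alike.

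Of the 5 genes measured, 2 passed an adjusted p of 0.05, both higher in knockout, where 1.24% of all genes passed, 0.511% higher and 0.731% lower. Of the 11 probe sets, 3 passed, all higher, where 1.11% of all probe sets passed, 0.340% higher and 0.766% lower. Knockout and wildtype ranges were apart for 3 of the 5 genes, 2 of them higher, where this held for 8.28% of all genes and, higher in knockout, for 3.14%. They were apart for 4 of the 11 probe sets, 3 higher and 1 lower, where this held for 7.18% of all probe sets, 2.82% higher and 4.36% lower. Nothing is read from these shares, because this contrast chose the genes. In all 18 alternative fits Zfp36 kept its call, at differences of 2.03 to 2.25, and so did Btg2, at 1.93 to 2.15. With the Xist level as a covariate, which left 9 of all genes called, the difference was 2.25 for Zfp36 and 2.15 for Btg2, with limma adjusted p of 0.00809 and 0.00482. On wildtype array 4, Zfp36 and the brighter Btg2 probe set were at their lowest, 2.32 and 2.16 below the knockout means. The dimmer Btg2 probe set was lowest on wildtype array 5, at 6.575, and read 6.584 on wildtype array 4. Only wildtype array 4 separated the Xist level from genotype, so the covariate fit and this comparison both rest on 1 array. The part of sex in these differences was not tested. Without knockout array 4, where dermal markers were high, the differences were 2.09 for Zfp36 and 2.07 for Btg2.

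**Figure D1:**
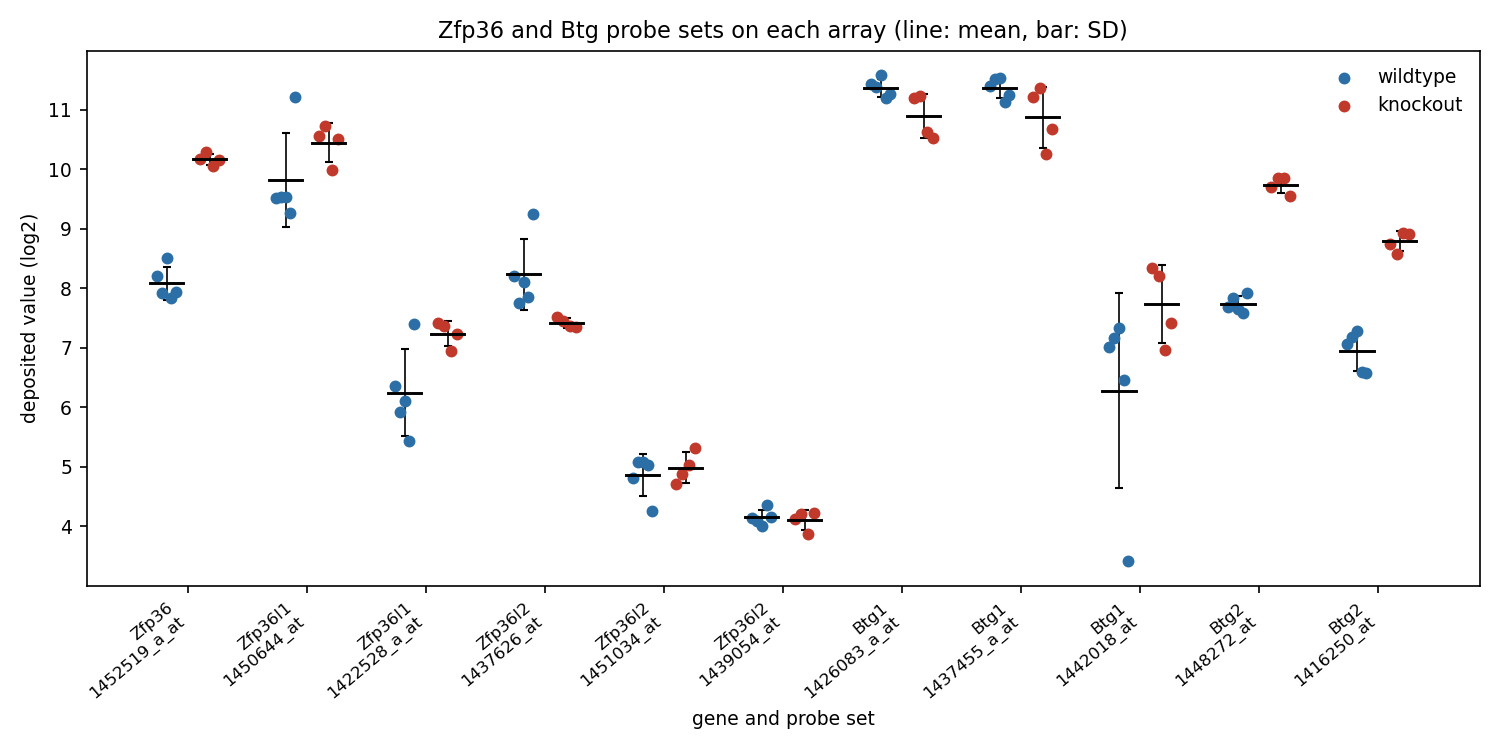
Deposited log2 level of each of the 11 probe sets on each array, wildtype in blue (5 arrays) and knockout in red (4 arrays), with the group mean as a line and the SD as a bar. The groups are far apart for Zfp36 and for both Btg2 probe sets, and 1 wildtype array, number 5, stands apart for Zfp36l1, for Zfp36l2 1437626_at and for Btg1 1442018_at; levels of different probe sets cannot be compared with each other.

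The spread of Zfp36 and Btg2 over the knockout arrays was small. Of the 58 genes called higher by at least 2-fold, 1 had a smaller knockout SD than Zfp36 (0.096) and 5 had a smaller one than Btg2 (0.14), while the median of the 58 was 0.39. The 58 genes were called by a test that uses this same spread, so the ranks only describe these arrays. The rise in both genes was of nearly equal size on all 4 knockout arrays. Expressed as the difference from each gene's own wildtype mean, Zfp36 and Btg2 were 0.25 apart as a root mean square over the 9 arrays. Outside the set, the gene nearest to Zfp36 was Junb, an AP-1 subunit, at 0.19, followed by Sprr2h, a small proline-rich cornified envelope gene, at 0.27 and Csrnp1, an immediate early nuclear protein gene, at 0.30. Outside the set, Junb was also nearest to Btg2, at 0.25, followed by Irak3, an inhibitor of interleukin-1 and Toll-like receptor signalling, at 0.33 and Sprr2h at 0.38. These distances rest on 1 probe set a gene and on arrays whose main split is the 1 between groups.

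**Figure D2:**
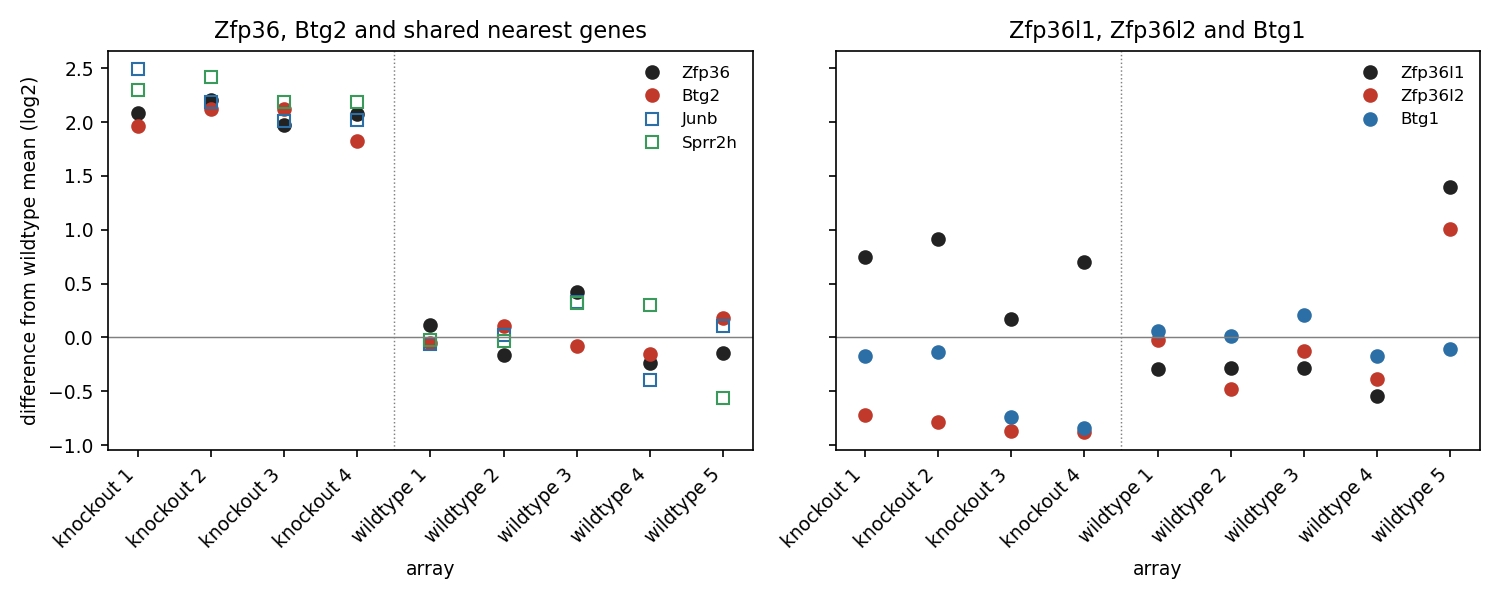
Level on each array as the difference from the gene's own wildtype mean (log2), for Zfp36, Btg2 and the genes near both (left) and for Zfp36l1, Zfp36l2 and Btg1 (right). On the left all 4 knockout arrays stand above all 5 wildtype arrays. On the right wildtype array 5 is the highest array for the brightest probe sets of Zfp36l1 and Zfp36l2.

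The 250 bases before the annotated start of Zfp36 and Btg2 are shown because both genes were higher in knockout by similar amounts. Those of Zfp36l1 and Btg1 are shown because these are the nearest relatives on the array with an entry in the promoter table. They come from RefSeq on build GRCm38.p6, at chr7:28379229-28379478 (minus strand), chr1:134079156-134079405 (minus strand), chr12:80113014-80113263 (minus strand) and chr10:96616751-96617000 (plus strand). Capitals mark a serum response element (CArG box) in Zfp36, the cAMP response element core TGACG or its reverse complement in Btg2 and Btg1, and the AP-1 motif TGANTCA in Zfp36l1, each searched on both strands.
Zfp36: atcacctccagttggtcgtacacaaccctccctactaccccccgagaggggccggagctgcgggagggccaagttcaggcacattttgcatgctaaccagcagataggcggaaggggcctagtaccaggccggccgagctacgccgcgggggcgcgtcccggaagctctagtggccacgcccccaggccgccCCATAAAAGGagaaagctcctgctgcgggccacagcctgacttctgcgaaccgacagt
Btg2: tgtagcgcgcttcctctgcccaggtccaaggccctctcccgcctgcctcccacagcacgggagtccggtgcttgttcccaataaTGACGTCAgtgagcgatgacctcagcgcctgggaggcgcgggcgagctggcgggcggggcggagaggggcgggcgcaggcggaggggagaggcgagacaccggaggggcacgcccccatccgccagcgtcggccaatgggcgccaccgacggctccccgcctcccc
Zfp36l1: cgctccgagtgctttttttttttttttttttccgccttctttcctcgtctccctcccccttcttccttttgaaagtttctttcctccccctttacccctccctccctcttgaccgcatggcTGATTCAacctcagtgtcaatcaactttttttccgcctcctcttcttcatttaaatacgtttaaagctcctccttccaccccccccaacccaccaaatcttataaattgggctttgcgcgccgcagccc
Btg1: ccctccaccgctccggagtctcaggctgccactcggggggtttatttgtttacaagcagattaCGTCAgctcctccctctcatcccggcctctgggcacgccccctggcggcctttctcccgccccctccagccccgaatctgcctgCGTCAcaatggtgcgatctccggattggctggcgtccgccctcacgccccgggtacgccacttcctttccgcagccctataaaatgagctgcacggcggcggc
The CArG box of Zfp36 lies 58 to 49 bases before the start, and 1.47% of all 32851 promoters hold one in the same window. The pair of TGACG cores in Btg2 overlap on opposite strands, 166 to 159 bases before the start, and Btg1 has 2 separate ones, while 17.8% of promoters hold at least 1. The AP-1 motif of Zfp36l1 is found in 6.75% of promoters. The Egr core GTGGGCG, in 7.02% of promoters, matched none of these 4, and a loose NF-kB pattern, in 45.8%, matched Zfp36, Btg2 and Btg1 and is not capitalised. Zfp36 and Btg2 thus shared none of the marked motifs in this window. A match is a run of letters and not a measured binding site.

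Zfp36l1, which targets growth factor and cell cycle messages, did not pass the threshold, and its difference depended strongly on 1 wildtype array. Its brighter probe set, 1450644_at, read 10.56, 10.73, 9.98 and 10.51 in knockout and 9.51, 9.53, 9.53, 9.27 and 11.21 in wildtype. Wildtype array 5 was the highest of all 9 arrays, and the other 4 wildtype arrays lay below every knockout array. The difference was 0.63 with a 95% interval of -0.15 to 1.41 and a limma adjusted p of 0.373.

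The dimmer Zfp36l1 probe set, 1422528_a_at, also had its highest wildtype value on array 5, at 7.42, 7.36, 6.94 and 7.22 against 6.36, 5.91, 6.11, 5.43 and 7.40. Without wildtype array 5 Zfp36l1 rose by 0.98, with an SE of 0.16 and a limma adjusted p of 0.0185, and its dimmer probe set rose by 1.28. Array weights, which give arrays that deviate more less influence, gave a rise of 1.06 and a limma adjusted p of 0.0083. With the replicate number as a block, which also removes wildtype array 5 from the comparison, the difference was 0.98. Its limma adjusted p over all genes was 0.0618, which did not pass. Over all probe sets, both Zfp36l1 probe sets passed in this fit, at limma adjusted p of 0.0499 for 1450644_at and 0.0276 for 1422528_a_at. The call for Zfp36l1 thus varied with the weight given to wildtype array 5 and with the fit. Nothing in the labels sets wildtype array 5 apart. With the Xist level as a covariate the difference was 1.23 and the limma adjusted p 0.664. The genes nearest to Zfp36l1 over the 9 arrays were Cpeb3, a cytoplasmic polyadenylation element binding protein gene, at 0.24, the salt-inducible kinase gene Sik1 at 0.26 and the mitochondrial RNA-binding protein gene Ptcd1 at 0.28. Cpeb3 and Sik1 were also highest on wildtype array 5, and without it Sik1 rose by 1.21 with a limma adjusted p of 0.0185. With all arrays Sik1 differed by 0.88 and did not pass, with the mean of its probe sets by 0.33 (limma adjusted p of 0.455) and with the Xist covariate by 1.46 (limma adjusted p of 0.590).

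Zfp36l2, the third zinc finger protein of the family, pointed the other way on its brightest probe set. Probe set 1437626_at read 7.51, 7.45, 7.36 and 7.35 in knockout and 8.21, 7.75, 8.11, 7.84 and 9.24 in wildtype. Every knockout array was below every wildtype array, as held in either direction for 8.28% of all genes. The difference was -0.81 with an SE of 0.26, and it did not pass, at a limma adjusted p of 0.159. Wildtype array 5 was again the highest, and without it the difference was -0.56 with a limma adjusted p of 0.0689.

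The other Zfp36l2 probe sets were dim and nearly flat. Probe set 1451034_at averaged 4.98 against 4.85, and 1439054_at averaged 4.10 against 4.15. Their differences had 95% intervals of -0.29 to 0.55 and -0.30 to 0.21, which do not hold the -0.81 of the brightest probe set. The mean of the 3 probe sets differed by -0.24. The genes nearest to 1437626_at, Zfp958 at 0.16, Fahd1 at 0.17 and Casp8ap2 at 0.17, were all highest on wildtype array 5 too, and none passed.

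Btg1, an antiproliferative gene abundant in resting cells, was lower on its brighter probe sets and, on average, higher on its dimmest, with none past the threshold. Probe set 1426083_a_at read 11.20, 11.23, 10.63 and 10.52 in knockout and 11.43, 11.38, 11.58, 11.19 and 11.26 in wildtype. Knockout arrays 3 and 4 lay below all wildtype arrays and knockout arrays 1 and 2 within their range. The difference was -0.47 with an SE of 0.17 and a limma adjusted p of 0.198.

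The second bright Btg1 probe set, 1437455_a_at, split the same way, at 11.20, 11.36, 10.25 and 10.67 against 11.40, 11.51, 11.53, 11.12 and 11.25. Probe set 1442018_at read 8.33, 8.21, 6.96 and 7.42 in knockout and 7.01, 7.17, 7.33, 6.46 and 3.41 in wildtype. Its difference of 1.46 had an SE of 0.71 and a limma adjusted p of 0.338 over all probe sets, and it was 0.74 without wildtype array 5. On all 3 probe sets knockout arrays 1 and 2 were higher than 3 and 4, and the mean over the probe sets differed by 0.16. The genes nearest to probe set 1426083_a_at were Ppp1r14b, a phosphatase inhibitor gene, at 0.084, the amino acid transporter gene Slc7a2 at 0.098 and the receptor kinase gene Mst1r at 0.098, and none passed.

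**Figure D3:**
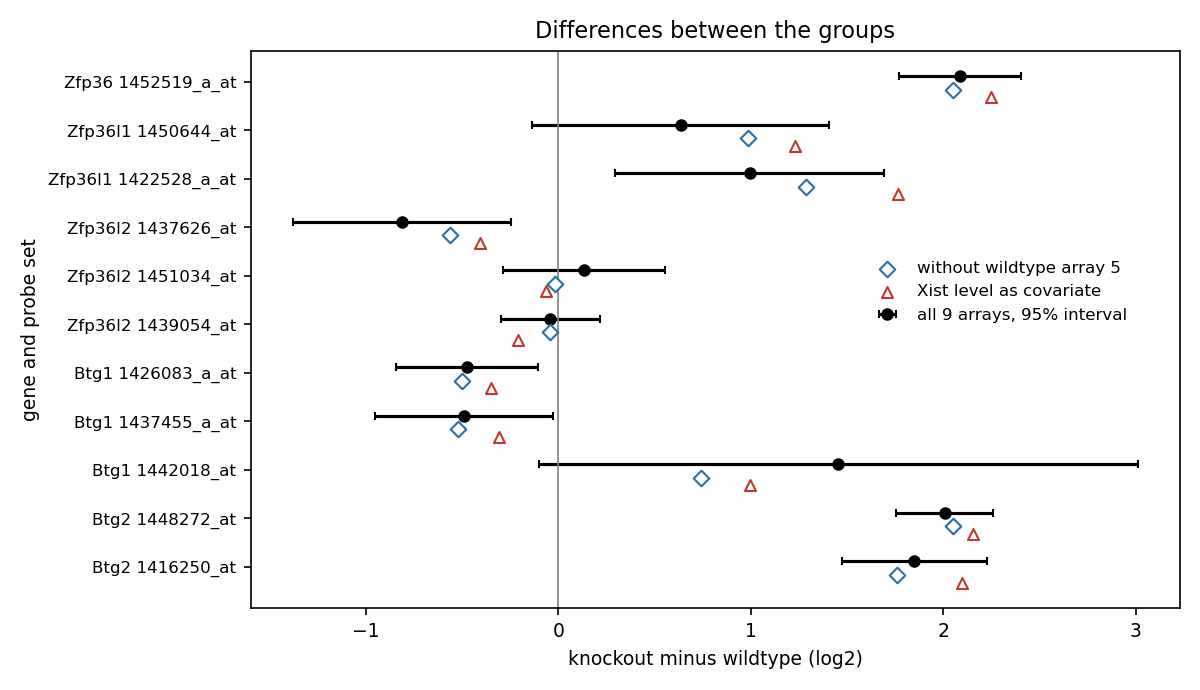
Knockout minus wildtype for each probe set (log2) with its 95% interval from limma over all probe sets (black), without wildtype array 5 (blue diamond) and with the Xist level as a covariate (red triangle). Zfp36 and the Btg2 probe sets stay between 1.76 and 2.25 in all 3 fits, while the Zfp36l1 probe sets shift upwards when wildtype array 5 is left out.

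The relatives of the Btg genes showed smaller differences. Of Btg4, Tob1 and Tob2 none passed the limma threshold and 2 reached an unadjusted p under 0.05, as 3232 of 18193 genes did. Tob1 read 11.41, 11.35, 10.77 and 10.76 in knockout against 10.63, 10.69, 11.03, 10.48 and 10.33 in wildtype, which differed by 0.44 (limma adjusted p of 0.256). Tob2 differed by 0.38. The 3 knockout over wildtype differences were all positive, with a median of 0.38 beside 0.02 over all genes.

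The deadenylase and the decay machinery that these proteins recruit showed no gene past the threshold. Counts at an unadjusted p under 0.05 in these lists and in those of 3′-end regulators, Btg partners and heat shock genes stand beside 17.8% of all genes. Of 10 measured CCR4-NOT genes 0 passed the limma threshold, 2 reached an unadjusted p under 0.05, and the list median was -0.22. Cnot11, a subunit of the complex, averaged 5.64 against 6.04, and the catalytic subunit gene Cnot8 averaged 5.09 against 5.47. Of 9 genes of other deadenylases, their relatives and poly(A)-binding proteins 0 passed and 5 had an unadjusted p under 0.05, with a median of -0.37. Noct, which encodes the circadian protein nocturnin of the CCR4 family, read 9.86, 10.01, 8.76 and 9.18 against 8.10, 8.44, 8.35, 8.21 and 6.94, with a limma adjusted p of 0.0719, and Angel2 averaged 6.14 against 6.90.

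Decapping and exosome genes did not pass either. Of 13 decapping and 5′-to-3′ decay genes 0 passed and 4 had an unadjusted p under 0.05, with a median of -0.19. Lsm1 averaged 4.10 against 4.84 and the decapping scaffold gene Patl1 5.20 against 5.83. Of 16 exosome and 3′-to-5′ decay genes 0 passed and 6 had an unadjusted p under 0.05, with a median of -0.22. The exosome subunit gene Exosc7 averaged 6.08 against 6.94 and Wdr61 9.06 against 9.70. The averages of these lists by array were highest on wildtype array 5, at 7.54 for CCR4-NOT, 6.61 for decapping and 5.84 for the exosome. On the other wildtype arrays the decapping average was 5.99 to 6.12, and knockout arrays 1 and 2, at 6.10 and 6.08, lay among them.

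Of 14 measured genes of other proteins that act on the 3′ ends of messages, 0 passed the limma threshold, 5 reached an unadjusted p under 0.05, and the list median was -0.10. Zc3h12a, the endonuclease Regnase-1 that cleaves inflammatory messages, read 6.73, 6.76, 5.02 and 5.36 in knockout and 4.46, 4.71, 4.86, 4.29 and 4.15 in wildtype. Its relative Zc3h12c read 7.29, 6.82, 3.87 and 5.07 against 4.14, 3.96, 4.20, 4.56 and 3.91. Both were high on knockout arrays 1 and 2 and close to wildtype on array 3, unlike Zfp36 and Btg2. Without knockout array 3 Zc3h12a rose by 1.79 and Zc3h12c by 2.24, with limma adjusted p of 0.0324 and 0.0395. Zc3h12a passed in 4 and Zc3h12c in 2 of 18 alternatives. Of the known partners of Btg1 and Btg2, 0 of 4 passed and 1 had an unadjusted p under 0.05. That was Prmt1, an arginine methyltransferase, which read 7.10, 6.86, 5.11 and 6.06 against 7.17, 7.29, 7.26, 7.01 and 7.01.

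Among 14 genes of the p38 and MK2 kinases, the phosphatases and the 14-3-3 proteins that act on Zfp36, 2 rose and 0 fell, where 0.511% of all genes were called higher and 0.731% lower, and the list median was 0.03. Dusp1, the phosphatase that inactivates p38, read 11.40, 11.76, 11.84 and 12.02 in knockout and 10.37, 9.98, 10.61, 9.47 and 10.04 in wildtype. It rose 3.17-fold with a limma adjusted p of 0.00637, and it kept its call in all 18 alternative fits. Mapk11, the beta form of p38, rose by 0.74 at dim levels, 3.36 against 2.62, with a limma adjusted p of 0.0334, and it passed in 7 of 17 alternatives. Of the fits with 1 array left out, Mapk11 passed without knockout array 3 and without wildtype array 5, and in none of the other 7. Mapk14, the alpha form, averaged 10.28 against 10.22, and Mapkapk2, which encodes MK2, 8.56 against 8.40. The kinase gene Mapkapk3 averaged 9.13 against 9.77, with a limma adjusted p of 0.0945. An unadjusted p under 0.05 in limma was reached by 4 of the 14, or 28.6%, against 17.8% of all genes.

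Of 21 measured messages best known as targets of the Zfp36 family, 2 rose and 0 fell by the limma test, where 0.511% of all genes were called higher and 0.731% lower. An unadjusted p under 0.05 was reached by 10 of the 21, or 47.6%, against 17.8% of all genes. Of the 21 differences 18 were positive, against 9729 of 18193 over all genes, and the list median was 0.38 beside 0.02 over all genes. The list as a whole was not tested. Ier3, an early response gene, read 9.91, 10.09, 8.74 and 9.01 in knockout and 7.28, 7.76, 7.72, 7.29 and 6.74 in wildtype, a rise of 4.23-fold with a limma adjusted p of 0.0106. Fos, the AP-1 subunit, read 11.22, 11.42, 12.31 and 11.90 against 10.66, 9.94, 10.65, 9.83 and 10.64, a rise of 2.58-fold with a limma adjusted p of 0.0343. Fos and Ier3 also belong to the immediate early list. Fos passed in 9 of 18 alternatives, and it did not pass without knockout array 2, 3 or 4 or without wildtype array 1, 2, 3 or 4, where it differed by 1.17 to 1.47. Ier3 passed in 17 of 18, all but the Xist covariate.

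The cytokine targets were dim or did not pass. Tnf, the founding target of Zfp36, averaged 3.29 against 3.07, Csf2 2.81 against 2.43 and Il6 2.73 against 1.97, where the median over all probe sets of an array was 3.14 to 3.31. The chemokine gene Ccl20 averaged 7.51 against 3.72 with a limma adjusted p of 0.0516, and Cxcl2 3.67 against 2.33 with the same adjusted p. Ccl20 was uneven over the knockout arrays, with an SD of 2.25 against 0.18 in wildtype. The list average was 5.13, 5.05, 4.84 and 5.04 on the knockout arrays and 4.31 to 4.36 on the wildtype arrays. With the Xist level as a covariate 0 of the 21 passed.

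**Figure D4:**
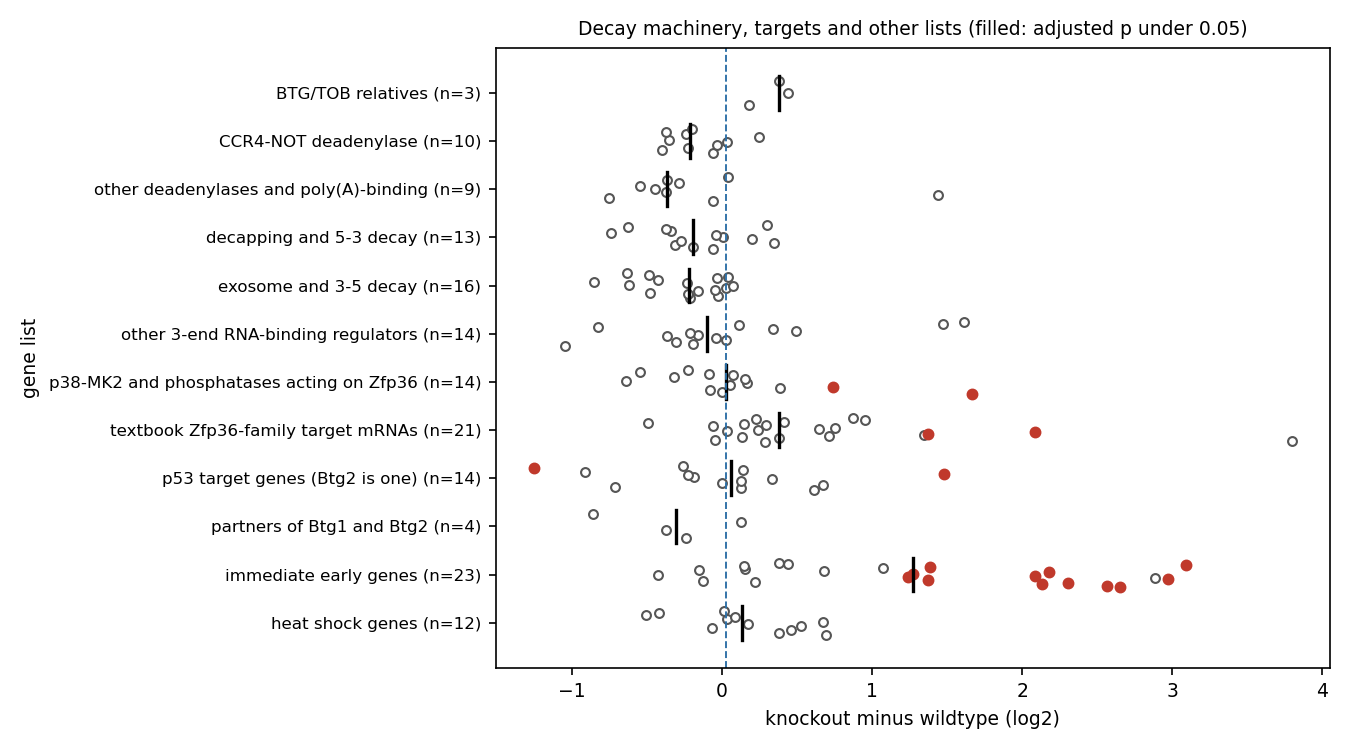
Knockout minus wildtype (log2) for each measured gene of 12 lists, with filled points for genes past an adjusted p of 0.05 in limma, the list median as a black line and the median of all genes as a dashed line. The decay machinery lists have no filled point and medians of -0.37 to -0.19, while 12 of 23 immediate early genes are filled.

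Btg2 was set beside the other p53 targets, and these did not move as 1 group. Of 14 measured, 1 rose and 1 fell, where 0.511% of all genes were called higher and 0.731% lower, and the list median was 0.06. Plk2, a stress-responsive kinase gene, read 8.89, 9.23, 7.59 and 8.32 against 6.65, 7.33, 7.23, 6.86 and 7.10, a rise of 2.78-fold with a limma adjusted p of 0.0380. It passed in 8 of 18 alternatives, and without knockout array 1, 2 or 4 or wildtype array 1, 2, 3 or 4 it did not pass. Trp53inp1 read 9.47, 9.85, 9.75 and 9.14 against 11.04, 10.89, 11.04, 10.75 and 10.31, and it fell by 1.26 with a limma adjusted p of 0.0126. With the mean of its probe sets Trp53inp1 differed by -0.97 and did not pass, at a limma adjusted p of 0.056. Cdkn1a, the p21 cell cycle inhibitor and main p53 target, averaged 11.43 against 10.75 with a limma adjusted p of 0.0759, and Mdm2 7.58 against 7.25.

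The immediate early genes, to which Zfp36 and Btg2 belong by their regulation, held the most calls of the lists. Of 23 measured, 12 rose and 0 fell, with a median of 1.27, where 0.511% of all genes were called higher. Nr4a1, Fosb and Arc had the largest called differences, 3.09, 2.97 and 2.65. Nr4a1 and Arc passed in all 18 alternatives and Fosb in 17. Junb, the nearest to Zfp36 and to Btg2 of the genes outside the set, differed by 2.18 with an SE of 0.16 and passed in all 18. Egr2, Egr3, Klf4 and Myc did not pass, at 0.22, -0.13, 0.15 and 0.14. This list was written with earlier results of these arrays known, so its count is no independent evidence. With the Xist level as a covariate 3 of the 23 passed.

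Heat shock genes were listed because the sheets were taken off in a hot bath. Of 12 measured 0 passed the limma threshold, 3 reached an unadjusted p under 0.05, and the median was 0.13. The list average was 9.07, 9.75, 8.16 and 8.72 on the knockout arrays and 8.53 to 8.97 on the wildtype arrays, so knockout arrays 1 and 2 were above all wildtype arrays, knockout array 3 below them and knockout array 4 among them. Bag3 averaged 7.22 against 6.53 and Hspa5 10.23 against 9.55. On knockout array 3, with the lowest heat shock average, Zfp36 read 10.05, its lowest knockout value, and Btg2 9.85, and the part of the bath in the values of these genes was not tested.

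Markers of other cell types were measured in 10 lists beside the keratinocyte list, and in none of the 11 did a gene pass in limma. Langerhans cell and macrophage markers averaged 6.28 to 6.48 on the knockout arrays and 5.46 to 7.29 on the wildtype arrays. Neutrophil markers averaged 3.38 to 3.99 against 2.97 to 4.01, T cell markers 3.70 to 4.04 against 3.26 to 4.38 and endothelial markers 3.03 to 3.45 against 3.14 to 3.55. Erythroid markers averaged 3.48 to 3.98 against 3.03 to 3.64. For each of these lists the groups overlapped, and the part of cell composition in the values of Zfp36 and Btg2 was not tested. Adipocyte markers averaged 4.39 to 5.24 against 4.36 to 8.96, hair follicle markers 5.13 to 6.22 against 5.84 to 6.82, and melanocyte markers 4.51 to 5.32 against 3.35 to 4.85. Wildtype array 5 was the highest array for Zfp36l1 1450644_at and Zfp36l2 1437626_at. On it melanocyte, T cell, neutrophil, Langerhans cell, fibroblast and erythroid averages were the lowest of all 9 arrays, and the endothelial average was the highest. Their part in the values of these probe sets was not tested.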

How the data were processed

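The deposited values were log2 levels of 45037 probe sets on 9 arrays, in 1 table from the authors. The submitters' processing notes name affy and no version, while background correction, normalization and probe summary are not given in the sources. Values of 1.43 to 14.46 showed the log2 scale, with array medians of 3.14 to 3.31. Precision is limited by the number of arrays. No array repeated another of its group, since at most 124 values were identical in a pair within a group.

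Of the probe sets, 34945 named 1 gene in the platform annotation. The probe set with the highest mean stood for its gene, which left 18193 genes. Knockout and wildtype were compared with limma 3.58.1 in R 4.3.3 (lmFit, eBayes, no filter) and Benjamini-Hochberg adjustment over all genes, or over all probe sets for the values of single probe sets. The code was tested on simulated data. The genes described and all gene lists were chosen with earlier results of these data known. Of each list, up to 3 called genes in each direction were named by size, or the 2 largest differences where none was called, and of other genes the 3 nearest to each member. Other list genes with well known roles (Mapk14, Mapkapk2, Mapkapk3, Tnf, Csf2, Il6, Ccl20, Cxcl2, Cdkn1a, Mdm2, Egr2, Egr3, Klf4 and Myc) were added after their values were seen. Promoters came from RefSeq (GRCm38.p6), with an entry for 5 of the 6 genes. Alternatives were other probe set summaries, a level filter, other scalings and eBayes settings, array weights, the Xist level, the replicate number as a block and each array left out.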

Additional observations from a re-analysis of the deposited data

Results flagged for a closer look

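Of 22 groups of values screened, each a probe set in 1 genotype, 2 held an array far from the others, where chance gives about 1 in 20. Zfp36l1 1450644_at read 11.21 on wildtype array 5, against at most 9.53 on the other wildtype arrays. Btg1 1442018_at read 3.41 on the same array, against at least 6.46 on the others. Both values come from the wildtype array that deviated most from its group over all genes.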

How the results depend on the processing

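The calls of Zfp36 and Btg2 and of both Btg2 probe sets held in every alternative fitted, and the number of the genes described that passed was 2 or 3. The total over all genes varied far more, with 1644 called with array weights, 9 with the Xist level as a covariate, 119 with the replicate block and 62 to 283 with 1 array left out. Leaving out knockout array 2 or 4 gave 62 or 88, and leaving out wildtype array 1, 2 or 4 gave 84, 71 or 89. With quantile normalization 147 genes were higher and 143 lower, against 93 and 133. Of the 11 probe sets 5 passed with array weights, 5 with the replicate block and 3 to 5 with 1 array left out, and both added ones were those of Zfp36l1 (5 passed when wildtype array 5 was left out). Deviations of same-numbered arrays from their group means correlated at -0.21, -0.10, -0.21 and 0.18, which showed no steady likeness within a number. With so few arrays, and a wildtype mean that includes array 5, this cannot show that samples were not paired. The block also removes wildtype array 5 from the comparison.

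Averaging all probe sets per gene, Btg1 differed by 0.16 and Slc7a2, near Btg1 in pattern, by 0.030, both opposite in sign. The mean of Btg1 includes probe set 1442018_at, at 1.46, beside -0.47 and -0.49 on its brighter probe sets. The dim Zfp36l2 probe set 1451034_at changed sign with array weights (-0.073), the Xist covariate (-0.067) and the replicate block (-0.019), and ran from -0.019 to 0.23 with 1 array left out. Probe set 1439054_at changed sign with quantile normalization (0.0040) and array weights (0.021), and ran from -0.082 to 0.036. The cause of the sign changes in Slc7a2 and in these Zfp36l2 probe sets was not tested. Among lists, averaged probe sets gave 1 called gene for the other 3′-end regulators and 1 for the p38 list. The Xist covariate gave 1 for the p38 list, 0 for Zfp36 targets, 0 for p53 targets and 3 for immediate early genes. With 1 array left out the counts ran from 0 to 2, 1 to 2, 1 to 4, 1 to 3 and 9 to 13 for the same 5 lists in that order, other 3′-end regulators first.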
